A study of Mus musculus with 7 samples.

Results

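The replication-dependent histone genes were taken as the protein-coding genes whose RefSeq symbols run from H1f1 to H1f6 or read H2ac, H2bc, H3c or H4c followed by a number. This rule found 63 of the 21887 protein-coding gene symbols annotated on GRCm38.p6, namely 6 H1, 17 H2A, 16 H2B, 12 H3 and 12 H4 genes. Oct1 (gene Pou2f1) and Oct4 (gene Pou5f1) were profiled by chromatin immunoprecipitation and sequencing in mouse embryonic stem cells (ESCs) of parental genotype, whose line the labels do not name. Of 7 samples, 4 carried a peak list used here: Oct1 and Oct4 in undifferentiated ESCs, and Oct1 at day 3 and day 6 of differentiation towards mesoderm. Differentiation started with Bmp4 in N2B27 medium and went on with Rspo3 and LDN-193189 in a medium based on DMEM. The other 3 samples were inputs and were not analysed here. Each group held 1 library, so no comparison below has a replicate check, and peak lists hold no expression from which the cell states could be examined.

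Replication-dependent histone genes supply the bulk of nucleosome protein during S phase. They are short, mostly lack introns, and lie in a few clusters where many H2A and H2B genes stand head to head across a shared promoter. Their transcripts end in a stem loop in place of a poly(A) tail and are made in histone locus bodies organised by the coactivator Npat. Octamer sites in H2B promoters are a textbook target of Oct1, a POU-domain factor present in most cell types. Oct4 is the related factor that maintains pluripotency.

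The main pattern was a difference between classes and lists at the 1 kb reach used here. In ESCs, Oct1 peaks lay at most H2A, H2B and H1 genes and at a smaller share of H3 and H4 genes, while Oct4 peaks lay mainly at H1 genes. The ESC difference between classes was smaller at a reach of 5 kb, where 8 of 12 H3, 8 of 12 H4, 11 of 17 H2A, 12 of 16 H2B and 5 of 6 H1 genes had an Oct1 peak. At day 3, Oct1 peaks lay at all 12 H3 genes, all 12 H4 genes and most others. At day 6 the share of histone genes with an Oct1 peak was near that of all protein-coding genes, 25.4% against 29.4%, and most of those peaks ranked low within their list.

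The sequences below show the octamer, whose exact letters were found in H2A and H2B promoter windows and in no H1, H3 or H4 window. The first set gives the octamer or its closest match, in capitals, in 9 H2B promoters and in the promoter of H2ac18. The runs come from RefSeq promoter windows of GRCm38.p6, reach from 250 bases before to 50 bases after an annotated start, and read 5′ to 3′ along the gene. RefSeq windows were matched for 58 of the 63 genes.
H2bc12, chr13:22035775-22035814, plus strand: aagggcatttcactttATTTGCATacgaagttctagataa
H2bc8, chr13:23571325-23571364, plus strand: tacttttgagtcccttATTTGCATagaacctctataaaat
H2bc14, chr13:21722003-21722042, plus strand: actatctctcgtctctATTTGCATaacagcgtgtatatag
H2bc18, chr3:96269636-96269675, plus strand: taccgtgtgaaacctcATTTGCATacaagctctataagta
H2bc1, chr13:23934297-23934336, minus strand: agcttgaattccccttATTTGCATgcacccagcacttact
H2bc7, chr13:23574238-23574277, minus strand: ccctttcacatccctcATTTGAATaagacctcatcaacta
H2bc11, chr13:22043136-22043175, plus strand: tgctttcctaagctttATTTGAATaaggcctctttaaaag
H2bc22, chr13:21787425-21787464, plus strand: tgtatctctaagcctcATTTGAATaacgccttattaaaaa
H2bc23, chr13:21810222-21810261, minus strand: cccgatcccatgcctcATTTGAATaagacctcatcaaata
H2ac18, chr3:96245393-96245432, plus strand: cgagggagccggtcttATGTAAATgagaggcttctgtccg
The octamer was searched as ATGCAAAT and its reverse complement ATTTGCAT. H2bc7, H2bc11, H2bc22 and H2bc23 differ from ATTTGCAT by C6A, counted from the 5′ end of the printed 8 bases, and H2ac18 differs from ATGCAAAT by C4T. H2bc1 and H2bc23 are shown because their sites resemble the others although no list held a peak at either gene.

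The second set gives 3 whole promoter windows, from an H2A, an H1 and an H4 gene. Capitals mark the octamer, the CCAAT box (CCAAT), the TATA box (TATAAA) and the H1 box (AAACACA), each searched on both strands, and no marked motifs overlap in these windows. The CCAAT box reads ATTGG where it lies on the other strand. H2ac6 lies under the strongest ESC Oct1 peak at any histone gene, and H4c9 is an H4 gene with an Oct1 peak at day 3 and none in ESCs, although it is also the H4 gene with an ESC Oct4 peak. H1f2 is the histone gene with the strongest Oct4 peak, which lies downstream of the printed window (chr13:23739201-23740090). The ESC Oct1 peak of H1f2 (chr13:23738711-23740100) overlaps the window.
H2ac6, chr13:23683910-23684209, minus strand: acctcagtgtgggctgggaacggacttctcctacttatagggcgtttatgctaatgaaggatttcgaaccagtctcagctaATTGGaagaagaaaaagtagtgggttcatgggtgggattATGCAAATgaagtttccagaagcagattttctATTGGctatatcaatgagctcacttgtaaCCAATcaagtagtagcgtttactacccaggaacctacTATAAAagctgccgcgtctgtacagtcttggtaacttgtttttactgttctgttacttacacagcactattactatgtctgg
H1f2, chr13:23738557-23738856, plus strand: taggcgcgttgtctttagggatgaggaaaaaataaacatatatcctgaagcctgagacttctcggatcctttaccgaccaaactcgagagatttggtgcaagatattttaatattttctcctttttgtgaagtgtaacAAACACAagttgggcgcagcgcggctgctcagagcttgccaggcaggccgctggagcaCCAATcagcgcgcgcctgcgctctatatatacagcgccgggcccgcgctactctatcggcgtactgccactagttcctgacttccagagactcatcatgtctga
H4c9, chr13:22041313-22041612, minus strand: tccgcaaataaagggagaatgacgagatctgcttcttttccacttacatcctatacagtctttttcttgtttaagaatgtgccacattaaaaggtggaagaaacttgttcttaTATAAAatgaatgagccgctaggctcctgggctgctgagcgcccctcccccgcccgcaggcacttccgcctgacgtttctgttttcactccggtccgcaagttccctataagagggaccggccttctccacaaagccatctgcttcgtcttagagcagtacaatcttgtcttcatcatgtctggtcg

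The lists held 17709 peaks for Oct1 and 22817 for Oct4 in ESCs, and 4867 and 7758 for Oct1 at day 3 and day 6. Each peak carried a whole-number score given by the authors without a unit, so scores are read below as percentiles within their own list, where 100 is the strongest. A gene was counted where the midpoint of a peak lay within 1 kb of either of its ends. Intervals in brackets are exact Clopper-Pearson 95% intervals. They cover the counting of genes or peaks alone, and they are too narrow where genes share a peak.

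Of the 63 histone genes, 30 had an ESC Oct1 peak (47.6%, 34.9 to 60.6), against 8.52% of all protein-coding genes. With Oct4 in ESCs the number was 8 (12.7%, 5.65 to 23.5), against 8.91%. At day 3, 55 histone genes had an Oct1 peak (87.3%, 76.5 to 94.4), against 14% of all genes. At day 6 the number was 16 (25.4%, 15.3 to 37.9), against 29.4%, so the histone share was near the background in the Oct4 and day 6 lists as deposited. Among the upper 50% of scores it was not: there the Oct4 share was 11.1% against 4.95% of all genes, and the day 6 share was 3.17% against 17.4%. Counted once where genes share them, these were 21 distinct peaks for ESC Oct1, 7 for Oct4, 43 at day 3 and 10 at day 6. The histone peaks made up 0.884% of the day 3 list (0.640 to 1.19), compared with 0.119% of the ESC Oct1 list (0.0734 to 0.181), 0.129% at day 6 (0.0618 to 0.237) and 0.0307% of the Oct4 list (0.0123 to 0.0632). The day 3 list was the shortest and yet held the most histone peaks. The lists also differed in how many of their peaks lay at ends of protein-coding genes. These were 2590 of 4867 peaks at day 3, 1711 of 17709 for ESC Oct1, 5564 of 7758 at day 6 and 1849 of 22817 for Oct4. The shares of whole lists given above are therefore not shares of gene-end peaks.

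**Figure D1:**
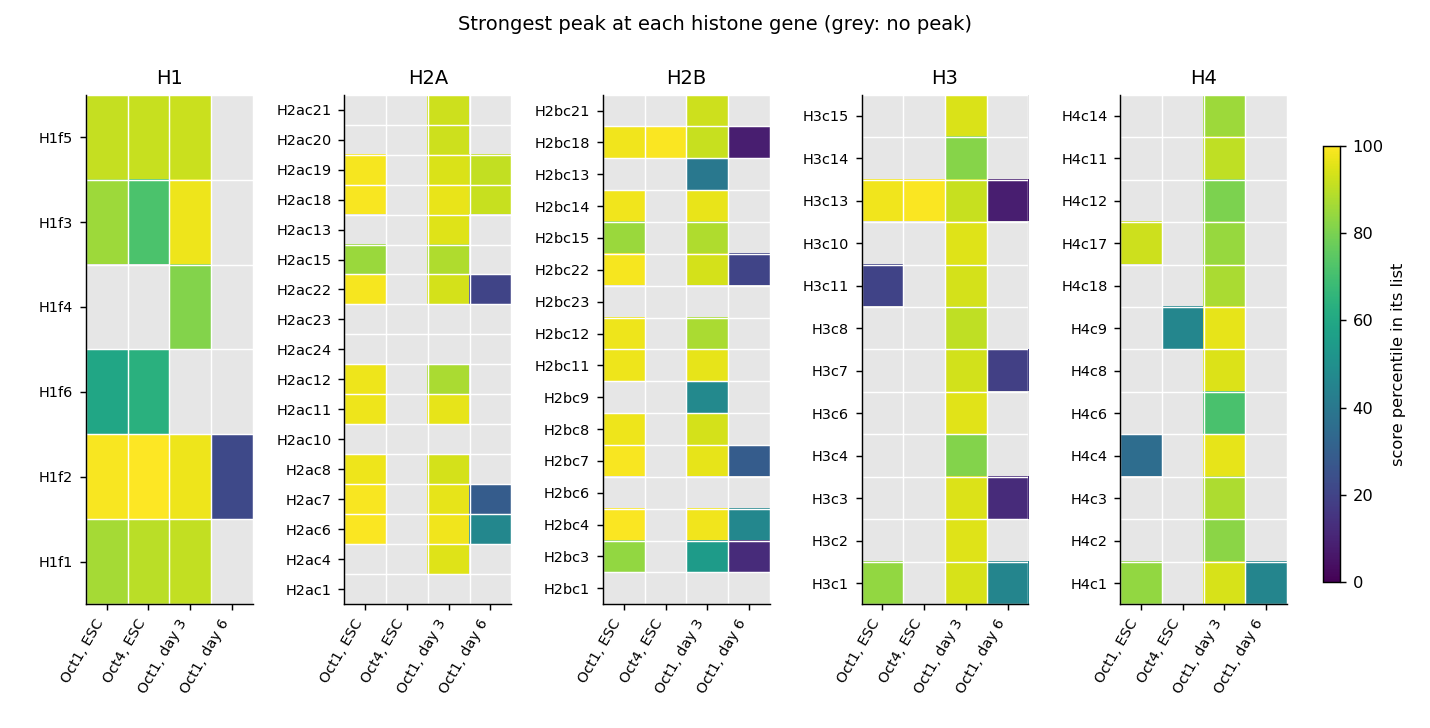
Each row is a histone gene, each column a peak list, and the colour is the score percentile of the strongest peak at the gene, with grey where there was none. The day 3 column is filled for all 12 H3 and all 12 H4 genes, and the Oct4 column is filled for 5 of 6 H1 genes and for no H2A gene.

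Within their lists, the peaks also differed in rank. The median score percentile of the histone peaks was 97.3 for Oct1 in ESCs, 89.6 for Oct4, 91.8 at day 3 and 25.6 at day 6. Over all peaks at ends of protein-coding genes the corresponding medians were 69.7, 54.8, 61.6 and 56.9. The top 10% of scores took in 13 of 21 histone peaks for ESC Oct1, 3 of 7 for Oct4, 26 of 43 at day 3 and 2 of 10 at day 6.

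**Figure D2:**
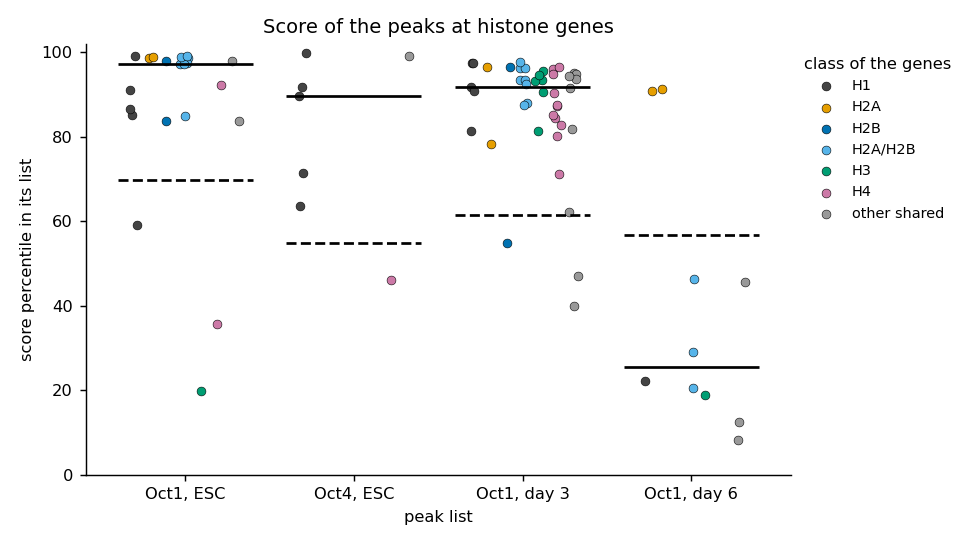
Each point is a distinct peak at a histone gene, placed by list on the x axis and by its score percentile within that list on the y axis. Colours give the class of the genes at whose ends the peak lies. Solid lines are the medians of these peaks (97.3, 89.6, 91.8 and 25.6) and dashed lines the medians over all peaks at protein-coding gene ends. The day 6 points lie below their dashed line except for 2 H2A peaks at 90.9 and 91.4.

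H2A and H2B, which form the dimers on either face of the nucleosome, had the most ESC Oct1 peaks by number. Of 17 H2A genes, 9 had one (52.9%, 27.8 to 77), and of 16 H2B genes, 10 did (62.5%, 35.4 to 84.8), beside 8.52% of all protein-coding genes. The median percentile of these peaks was 98.7 for H2A and 97.7 for H2B. The strongest lay between H2ac6 and H2bc4 (chr13:23683661-23684530), with an ESC Oct1 score of 2245 at percentile 99.2. It had a day 3 counterpart with a score of 1848 (percentile 97.7), a day 6 counterpart with 469 (46.3), and no Oct4 peak. In its list the site was therefore near the top in ESCs and at day 3 and in the middle at day 6.

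The promoter of H2bc7 and H2ac7 also ranked near the top of the ESC and day 3 lists, and lower within the day 6 list. Its Oct1 score was 1711 (percentile 98.9) in ESCs, 1200 (96.3) at day 3 and 293 (29.0) at day 6. The peak between H2ac22 and H2bc22 scored 1440 (98.7), 794 (93.4) and 206 (20.6) at these times. Both promoters carry the C6A form of the octamer and had no Oct4 peak.

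The peak of H2bc18, which also lay within 1 kb of the downstream end of the H3 gene H3c13, was the H2B site with an Oct4 peak. No ESC peak lay within 1 kb of the annotated start of H3c13. Its scores were 975 (98.0) for Oct1 and 603 (99.3) for Oct4 in ESCs. At day 3 the same pair of genes had 2 peaks, of which the stronger scored 687 (91.5), and at day 6 a peak of 106 (8.22) lay nearer to H3c13. H2bc3 had weaker peaks, with scores of 238 (83.7) in ESCs and 218 (54.9) at day 3, and shared a day 6 peak of 138 (12.4) with H3c3.

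The other H2B genes with an ESC Oct1 peak had one again at day 3 and none at day 6. These were H2bc14 (914 in ESCs and 1283 at day 3), H2bc15 (250 and 561), H2bc12 (782 and 544), H2bc11 (852 and 1203) and H2bc8 (786 and 808). Their percentiles ran from 85.0 to 97.9 in ESCs and from 87.5 to 96.5 at day 3. H2bc13, H2bc9 and H2bc21 had a peak at day 3 alone, with scores of 152 (39.9), 181 (47.2) and 743 (92.6). H2bc1, H2bc6 and H2bc23 had none within 1 kb of a gene end in any list.

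Most of these peaks belong to both genes of a pair. RefSeq starts identified 9 head-to-head pairs with at most 500 bp between their starts, all of them of an H2A and an H2B gene, 164 to 281 bp apart. In ESCs 6 of the 9 pairs shared an Oct1 peak, at day 3 there were 7, at day 6 there were 2, and for Oct4 there were none. The pairs without a peak at day 3 were H2bc23 with H2ac23 and H2bc1 with H2ac1. The H2ac6 and H2bc4 promoter is not among the 9, because no RefSeq window was matched for H2bc4.

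H2ac18 and H2ac19 stood apart from the other H2A genes. They are neighbouring copies in the chromosome 3 cluster with ESC Oct1 scores of 1756 and 1539 (percentiles 99.0 and 98.8). At day 6 their peaks scored 1503 and 1472 (91.4 and 90.9), while the next histone peak in that list reached 469. They were the 2 histone peaks in the top 10% at day 6, and their widths there were 520 and 510 bp. The C4T form of the octamer lay 72 bp from the midpoint of the day 6 peak for H2ac18 and 17 bp from it for H2ac19. Of the 50-base words in each of these promoter windows, 67.7% also occur in the other, and the part of this repeat in the peaks was not tested.

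Linker histone H1 genes, whose products bind the DNA between nucleosomes, were the class that carried Oct4 peaks. In ESCs, 5 of 6 H1 genes had an Oct1 peak and 5 of 6 an Oct4 peak (83.3%, 35.9 to 99.6, for each). Of all protein-coding genes, 8.52% and 8.91% did. The H1 genes were the same in both lists, H1f1, H1f2, H1f3, H1f5 and H1f6, and H1f4 had neither. Outside the H1 class, the histone genes with an Oct4 peak were H3c13 and H2bc18, which share it, and H4c9.

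H1f2 had the strongest of the Oct4 peaks, with a score of 1143 that ranked 43 in the whole list (percentile 99.8). Its Oct1 scores were 1988 (99.1) in ESCs, 1792 (97.6) at day 3 and 223 (22.1) at day 6. It was the H1 gene with a peak in all 4 lists. The Oct1 peak was also the widest of the ESC histone peaks, at 1390 bp.

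The other H1 genes had lower Oct4 scores, namely 289 at H1f5 (percentile 91.8), 267 at H1f1 (89.6), 184 at H1f3 (71.5) and 166 at H1f6 (63.6). Their ESC Oct1 scores were 339, 269, 254 and 125 in the same order, with percentiles of 91.0, 86.7, 85.3 and 59.2. At day 3, H1f3 scored 1719 (97.5), H1f5 700 (91.8), H1f1 660 (90.8) and H1f4 429 (81.4). H1f6, the testis H1 gene, was the member that had an Oct1 peak in ESCs and none at day 3. None of these genes but H1f2 had a day 6 peak.

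H3 and H4 form the central tetramer of the nucleosome. In ESCs, Oct1 peaks lay at 3 of 12 H3 genes and at 3 of 12 H4 genes (25%, 5.49 to 57.2, for each), a lower share than for the other classes at this reach, beside 8.52% of all protein-coding genes. Among them, H3c11 and H4c4 had scores of 70 and 86 (percentiles 19.9 and 35.6), the 2 weakest of the ESC histone peaks. H4c17 scored 378 (92.3), H3c13 has the peak shared with H2bc18, and H3c1 and H4c1 share a peak of 239 (83.7). Oct4 peaks lay at H3c13 and, with a score of 136 (46.1), at H4c9. The ESC Oct1 count for H3 moved with the distance allowed, from 1 gene within 500 bp to 7 within 2 kb and 8 within 5 kb. For H4 it was 4 genes within 2 kb and 8 within 5 kb. Within 2 kb, 10 of 17 H2A and 11 of 16 H2B genes had a peak, so the H3 share was then close to that of H2A.

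At day 3 all 12 H3 and all 12 H4 genes had an Oct1 peak (100%, 73.5 to 100, for each), beside 14% of all protein-coding genes. The median percentile was 93.3 over the 15 peaks at H3 genes and 87.5 over the 12 at H4 genes. Day 3 scores at H3 genes reached 1051 at H3c6, 993 at H3c10, 949 at H3c2 and 932 at H3c3, of which none had an ESC Oct1 peak. At H4 genes they reached 1250 at H4c4, 1150 at H4c9 and 943 at H4c8, and the lowest was 320 at H4c6. At day 6, 4 H3 genes (33.3%) and 1 H4 gene (8.33%) had a peak, beside 29.4% of all protein-coding genes. They were H3c13, H3c7, H3c3, H3c1 and H4c1, with percentiles between 8.22 and 45.6. The day 6 peak counted for H3c3 did not overlap its day 3 peak and lay on that of H2bc3.

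In all, 26 histone genes had a day 3 Oct1 peak and no ESC Oct1 peak (41.3%, 29.0 to 54.4), against 10.8% of all protein-coding genes. They were 9 H3, 9 H4, 4 H2A, 3 H2B genes and 1 H1 gene. A peak in all 3 Oct1 lists was found at 14 histone genes (22.2%, 12.7 to 34.5), against 2.29% of all genes. These were 5 H2A, 5 H2B, 2 H3, 1 H4 and 1 H1 genes. For H3c13 and H2bc18, which are among them, the day 6 peak did not overlap an ESC Oct1 peak. The difference between ESC and day 3 lists could not be tested across libraries.

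**Figure D3:**
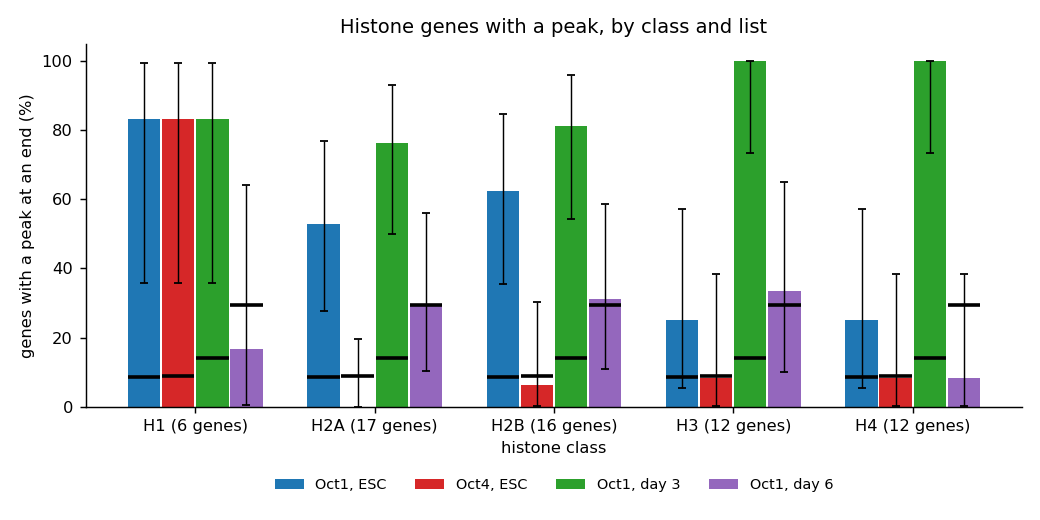
Bars give the percentage of genes of each histone class with a peak at an end in each list, whiskers the exact 95% interval, and the black marks the percentage over all protein-coding genes in the same list. For H3 and H4 the day 3 bars reach 100% and the ESC Oct1 bars 25%, while for H1 the Oct1 and Oct4 bars in ESCs both stand at 83.3%.

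Overlap of the peaks themselves gave the same order. Of the 21 ESC Oct1 histone peaks, 20 overlapped a day 3 peak by at least 1 bp (95.2%, 76.2 to 99.9), against 8.88% of all ESC Oct1 peaks, and the exception was that of H1f6. At day 6 the number was 8 (38.1%, 18.1 to 61.6), against 6.66%. An Oct4 peak overlapped 6 of them (28.6%, 11.3 to 52.2), against 59.1% of the whole list. Of the 43 day 3 histone peaks, 20 overlapped an ESC Oct1 peak (46.5%, 31.2 to 62.3), against 32.3%. A day 6 peak overlapped 10 of the 43 (23.3%, 11.8 to 38.6), against 58.5% of all day 3 peaks. All 10 day 6 histone peaks lay on a day 3 peak (100%, 69.2 to 100), against 36.6% of the day 6 list. These background shares take in peaks away from genes, while histone peaks lie at gene ends by the rule used. Peaks at protein-coding gene ends were 1711 of 17709 in the ESC Oct1 list and 2590 of 4867 at day 3. The overlap among gene-end peaks alone was not computed, so the contrasts with whole lists are not like for like.

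Every cluster except the smallest took part. The genes were placed in 5 clusters, divided wherever no member followed within 100 kb. On chromosome 3, 10 genes lie within 50.3 kb (chr3:96219885-96270192), and of these 4 carried Oct1 in ESCs, 2 carried Oct4, 10 carried Oct1 at day 3 and 4 at day 6. The largest cluster on chromosome 13 (chr13:23531044-23764412) holds 29 genes, with 14, 4, 26 and 10 in the same order. A second one (chr13:21715711-21833475) holds 17 genes, with 8, 1, 14 and 2. The cluster of 5 genes at chr13:22035122-22043658 had 4, 1, 5 and 0. The pair H2bc1 and H2ac1 (chr13:23933725-23934913), testis-specific genes, had no peak in any list.

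Peaks inside these clusters kept to the histone genes. Of the 44 day 3 peaks between the outermost members, 43 lay within 1 kb of a member, and the same was true of all 21 ESC Oct1, all 7 Oct4 and all 10 day 6 peaks. The remaining day 3 peak contains an octamer of the second annotated promoter of H2bc6, a gene annotated over 37455 bp, and lies more than 1 kb from either gene end. The clusters hold 1 other protein-coding gene, which had no peak in any list.

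By the rule on gene ends, members were absent from all lists in 7 cases (11.1%, 4.59 to 21.6), against 62% of all protein-coding genes. They were H2ac1, H2ac10, H2ac23, H2ac24, H2bc1, H2bc6 and H2bc23, of which H2bc6 had 1 day 3 peak within 1 kb of an annotated internal start. For H2bc23, H2ac23 and H2ac24, 100%, 86.9% and 73.3% of the 50-base words of the promoter window recur in the promoter of another histone gene copy, and the part of such repeats in the missing peaks was not tested. Leaving out the bases that head-to-head neighbours share by position, H2ac10, H2bc1, H2bc6 and H2ac1 share no such word with another promoter. H4c17 and H4c18 share 94.0% of theirs and both had a day 3 peak.

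In the ESC and day 3 lists most peaks were centred on the genes themselves. Histone genes are short, with a median annotated length of 492 bp against 17169 bp for all protein-coding genes, so that both ends of 58 of the 63 genes lie within 1 kb of each other. At day 3 the midpoint lay inside a histone gene for 33 of 43 peaks, compared with 14 of 21 for ESC Oct1, 6 of 7 for Oct4 and 3 of 10 at day 6. Measured from the nearest RefSeq start, the median day 3 midpoint was 199 bp downstream for H3, 201.5 bp downstream for H4 and 269.5 bp downstream for H1. For peaks at H2A genes it was 35.5 bp upstream and for peaks at H2B genes 50.5 bp downstream. Each peak has 1 distance, from the nearest start of any histone gene it was counted for, whatever the class. At day 3, 13 of 15 peaks at H2A genes and 12 of 14 at H2B genes lay at several members. The H2A and H2B medians therefore do not measure distances from starts of their own class alone.

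**Figure D4:**
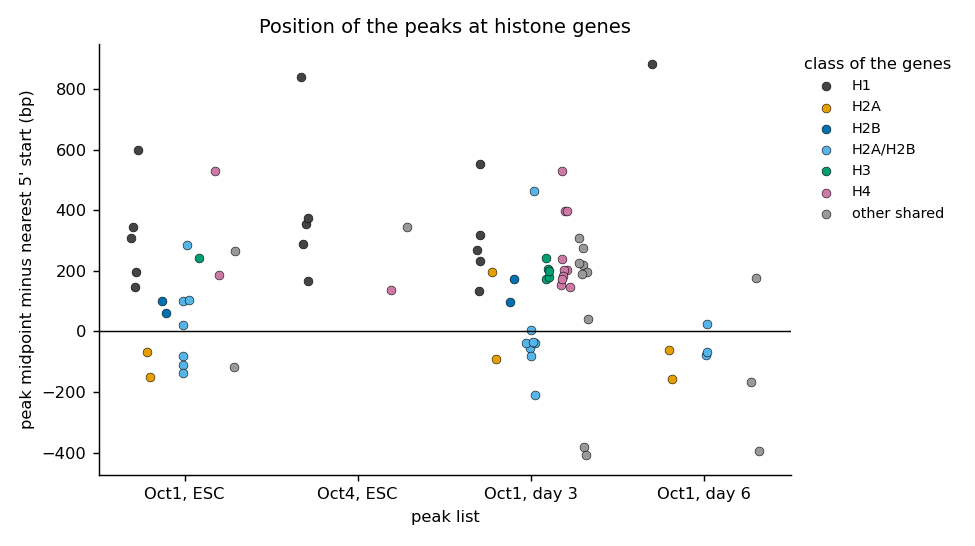
Each point is a distinct peak at a histone gene with a RefSeq start in reach, and the y axis is the distance in bp from the nearest start of a member to the peak midpoint, positive in the direction of transcription. Points are coloured by the class of the genes at whose ends they lie. H1, H3 and H4 peaks lie mostly above 0, and peaks shared by H2A and H2B genes lie on both sides of it.

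The median width of the Oct1 histone peaks was 770 bp both in ESCs and at day 3, against 640 and 610 bp for all peaks at protein-coding gene ends in these lists. At day 6 it was 575 bp, against 660 bp. At day 3, 13 of 43 (30.2%) were wider than 1000 bp, against 4.56% of gene-end peaks. In ESCs 1 of 21 Oct1 histone peaks was that wide, against 8.71% of gene-end peaks. The widest, of 2390 bp at day 3, covered H3c15 and H2ac19 together.

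In the promoter windows printed in part above, the exact octamer was found for 7 of 14 H2B genes and 6 of 17 H2A genes, and in no H1, H3 or H4 window. Over all 21263 protein-coding promoter windows of the same length, 1.66% held it. Since head-to-head genes share bases, the matches stand for 10 distinct sites. With 1 mismatch allowed, 13 of 14 H2B and 14 of 17 H2A genes had a match, against 16.4% of all windows, with 1 H1, 1 H4 and no H3 gene. ATTTGAAT, which was looked up after the H2B matches were seen, was the closest match in 5 H2B windows and occurs in 1.10% of all windows.

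**Figure D5:**
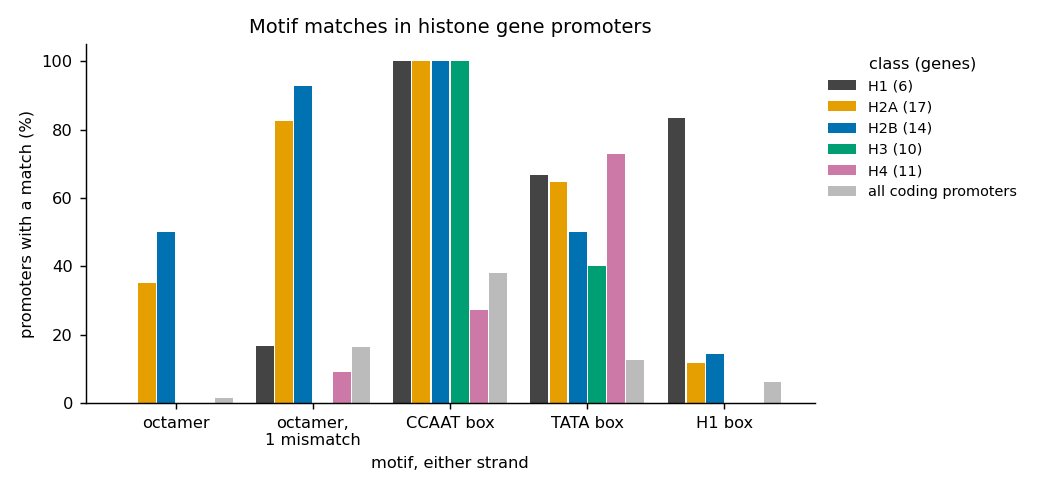
Bars give the percentage of genes of each class whose RefSeq promoter window holds a motif on either strand, with the percentage of all protein-coding promoter windows in grey. The octamer bars stand at 50% for H2B and 35.3% for H2A and are absent for H1, H3 and H4, and the H1 box bar stands at 83.3% for H1.

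Other known histone promoter elements had other distributions. The CCAAT box was present in every H1, H2A, H2B and H3 gene window and in 3 of 11 H4 windows, against 38.2% of all windows. The TATA box was present in 34 of 58 histone genes, against 12.6%. The H1 box was present in 5 of 6 H1 genes, in 2 H2A and 2 H2B genes, and in 6.15% of all windows.

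Peaks held 6 of the 10 octamer sites in the ESC Oct1 list, 7 at day 3, 1 at day 6 and none in the Oct4 list. The octamer of H2ac6 lay 10 bp from the midpoint of its ESC Oct1 peak, and that of H2bc18 310 bp from its own. Among H2B genes, 5 of 7 with the exact octamer and 4 of 7 without it had an ESC Oct1 peak, so the exact match did not divide the class. At day 3 the numbers were 5 of 7 and 6 of 7. Counted by gene ends, H2bc6 is among those without a day 3 peak, although a day 3 peak holds the octamer of its second annotated promoter. Over all protein-coding genes with a promoter window, an ESC Oct1 peak was found at 22% of 332 genes with the octamer and 8.26% of 17160 without. At day 3 the shares were 27.4% and 14.1%, at day 6 26.8% and 30.2%, and for Oct4 10.2% and 8.72%. A match describes the letters in the window and does not show that a factor binds there.

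Genes of histone expression and assembly outside the clusters had more Oct1 peaks at day 6 than at day 3. Of a list of 29 such genes, which include regulators, processing factors and chaperones, 4 carried Oct1 in ESCs (13.8%) and 3 carried Oct4 (10.3%), near the 8.52% and 8.91% of all protein-coding genes. At day 3 the number was 9 (31.0%) and at day 6 it was 23 (79.3%), beside 14% and 29.4% of all protein-coding genes. Npat had no ESC peak, a day 3 score of 304 (percentile 69.4) and a day 6 score of 1091 (81.8). Slbp, whose product binds the histone stem loop, scored 369 (76.6) at day 3 and 632 (59.3) at day 6. Nfya, a subunit of the factor that binds CCAAT boxes, scored 90 (39.5) in ESCs, 953 (95) at day 3 and 2104 (96.7) at day 6. Pou2f1, which encodes Oct1, scored 142 (64.7), 599 (89.4) and 2231 (97.2) at the same times and had no Oct4 peak.

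Of 11 genes for histones made independently of replication, none had a peak at an end in either ESC list, beside 8.52% and 8.91% of all protein-coding genes. At day 3, 4 had one (36.4%, beside 14%), namely H3f3a, H2ax, H2az1 and H2az2, and at day 6 the same genes without H2ax (27.3%, beside 29.4%). The strongest at day 3 was at H2ax (score 718, percentile 92.2), whose transcript also exists in a form with a stem loop. The day 6 peaks of H3f3a, H2az1 and H2az2 had scores of 944, 825 and 776 (percentiles 76.2, 70.9 and 68.3).

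Taking for each gene the midpoint nearest to it, the farthest one inside the 1 kb limit lay 810.5 bp from H3c13 for ESC Oct1, 890.5 bp from H3c13 for Oct4, 656.5 bp from H2bc21 at day 3 and 869.5 bp from H2bc18 at day 6. The nearest one outside lay 1313.5 bp from H3c15, 1252.5 bp from H2ac11, 1201.5 bp from H2bc6 and 1206.5 bp from H2bc9.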

How the data were processed

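The members and lists used here were chosen with earlier results of these data known. Per the submitters' processing notes, Novoalign 3.8.2 and build mm10 were used, and mm10 corresponds to GRCm38. The peak caller, its threshold and the use of the inputs are not given in the sources used here. The authors deposited 1 headerless peak list per library, with a whole-number score per peak that has no stated unit. Read counts do not appear in the lists, so depth is unknown. Lists were read with Python 3.11.15, numpy 2.4.6, pandas 2.3.3 and scipy 1.17.1, and figures were drawn with matplotlib 3.10.9. Peaks were assigned to genes by midpoint, within 1 kb of either end, with gene ends from a RefSeq table of GRCm38.p6. Starts and strands came from the RefSeq promoter windows. Assignment and overlap were tested on simulated data. Genes named are all H2B genes, members with a peak in all 3 Oct1 lists, with an Oct4 peak, with the highest ESC Oct1 score of their class or with no peak, and, chosen after their values were seen, the other H1 genes, further H3, H4 and H2A genes, and examples from the lists of other histone-related genes. Since every group held 1 library, none was tested against another.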

Additional observations from a re-analysis of the deposited data

How the results depend on the processing

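No paired analysis was possible because each group held 1 library. Recomputing 42 results gave 253 values, of which 204 stayed within 1.5 times (counts), within their interval (shares) or within 1 SD over peaks (percentiles). All alternatives were planned. Depth and threshold of each list are unknown, and the ESC lists are longer than the day 3 list. The number of histone genes with a peak stayed within 1.5 times under every alternative for ESC Oct1 and day 3. A wider reach adds genes and fewer peaks remove them by construction. For the other changes listed next, the cause was not tested.

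With 500 bp in place of 1 kb, 1 H3 gene had an ESC Oct1 peak and 0 an Oct4 peak. With 2 kb, 7 H3 genes had an ESC Oct1 peak and 7 a day 6 peak, and Oct4 peaks lay at 1 H2A, 2 H2B, 2 H3 and 2 H4 genes. With 5 kb, 17 histone genes had an Oct4 peak (27% against 23.2% of all coding genes, with 1 H2A, 4 H2B, 3 H3 and 4 H4 among them) and 26 a day 6 peak (41.3% against 35.4%, with 2 H1, 8 H3 and 2 H4 among them), and ESC Oct1 peaks lay at 8 H3 and 8 H4 genes. Counting any base of a peak, 1 H2A gene had an Oct4 peak. With annotated 5′ starts alone, which 58 genes have, H3 genes with a peak were 1 for ESC Oct1, 0 for Oct4 and 2 at day 6, and the Oct4 share over all classes was 12.1% against 5.49%.

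With the upper 50% of scores, 2 histone genes kept a day 6 peak, with 2 distinct peaks, both at H2A genes and 0 in each other class (3.17% of histone genes, against 17.4% of all coding genes), and 0 H4 genes had an Oct4 peak (all classes 11.1%, against 4.95%). The overlap with day 6 was then 10.5% of ESC Oct1 and 4.88% of day 3 histone peaks. With each list shortened to 4867 peaks, 5 histone genes had an Oct4 peak (4 distinct peaks, at 3 H1 and 0 H4 genes; 7.94% against 2.47% of all coding genes) and 6 a day 6 peak (4 distinct peaks, at 0 H1, 3 H2A, 1 H2B and 1 H3 genes; 9.52% against 21.3%). Of the ESC Oct1 histone peaks, 100% then overlapped a day 3 peak, and 9.30% of day 3 histone peaks a day 6 peak. With 1 mismatch, the octamer was found in 1 H1, 14 H2A, 13 H2B and 1 H4 promoters.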

Other observations

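Further histone genes carry an older symbol of the same kind but a current symbol outside the rule. H4f16 on chromosome 6, an H4 gene outside the clusters, had Oct1 scores of 1732 in ESCs (percentile 98.9), 668 at day 3 (91) and 130 at day 6 (11.1), and no Oct4 peak. H2aw on chromosome 11 had ESC and day 3 Oct1 scores of 724 (97) and 399 (79.2), and 2 day 6 peaks of which the stronger scored 248 (24.5). H2bu2, which lies near H2aw, and H4bc24, a copy near H2ac24, had no peak in any list.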
